A study of Homo sapiens with 3 samples.

Results

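Imprinted genes are expressed mainly or only from 1 parental copy, chosen by which parent it came from, under the control of DNA methylation laid down in the egg or sperm. Their accessibility was examined in neurons derived from KOLF2.1J, a human stem cell line established by reprogramming. Of the 35 imprinted genes chosen by name, 29 code for protein and 6 are long non-coding RNAs. They are 35 of the 59679 genes placed in the RefSeq table. A total of 34 matched by symbol and 1, SLC22A18, by an older symbol of SLC67A1. Of the 65234 distinct accessible regions in the genome, 133 lay at, inside or within 50 kb of a member.

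The assay was ATAC-seq, in which the Tn5 transposase cuts into open DNA so that accessible sequence collects sequenced tags. All 3 samples form 1 group, neurons of the KOLF2.1J-hNGN2 line collected after 14 days of differentiation, with the neurogenic factor NGN2. How the factor is driven is not given in the sources used here. The series sought regulatory elements of MAPT, and the 3 samples are represented by a single deposited peak list. It has no value per replicate, so every value is a pooled one, no spread between replicates can be given, and no statistical test was possible. The list has no allele information either, so each value is a sum over the maternal and the paternal copy.

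Most imprinted genes lie in clusters, in which an imprinting control region that is methylated on 1 parental copy sets the state of several neighbours. Some clusters act through a long non-coding RNA that silences genes on its own copy, and others through the insulator protein CTCF, which binds the unmethylated copy. The methylation survives the reprogramming of the early embryo because zinc finger proteins such as ZFP57 and ZNF445 bind the methylated copy and recruit TRIM28. Several imprinted genes act on growth, and others, among them UBE3A and the SNRPN cluster, are known for neurodevelopmental disorders.

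The list held 145092 summits, with fold enrichments, the authors' ratio of tags at a summit to the local background, from 1.29 to 31.9. The tags behind each summit were recovered from the ratio and its p-value and ranged from 58 to 3783, with a median of 189. Tag intervals below are exact Poisson 95% intervals, and they cover counting error only, since amplified tags are not independent molecules. As a check of the cell type, 10 of 12 pan-neuronal genes (83.3%) had a summit within 1 kb of an outer end, as did 5 of 8 glial genes (62.5%), 2 of 8 pluripotency genes and 68.8% of all coding genes. The glial share is near that of all coding genes, and with so few genes these counts are a weak check. Among the pluripotency genes, POU5F1 and NANOG had none at an end and none inside. LIN28A and PRDM14 had a summit at an end, with fold enrichments of 3.04 and 3.90, and DPPA4 had one at an annotated start and regions inside.

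At least 1 listed summit lay within 1 kb of an outer end of 23 of the 35 members (65.7%). By kind, these were 21 of the 29 coding members (72.4%), where 68.8% of all 20037 coding genes had one. They were also 2 of the 6 non-coding members (33.3%), where 30.5% of all 18303 lncRNA genes had one. Both shares were thus near those of all genes. The 23 members were served by 28 distinct regions, because PEG10 and SGCE share 1 and others have more than 1. A summit lay at both ends in 4 members, PHLDA2, MAGEL2, PLAGL1 and IGF2R, and in 6.70% of all coding genes. The farthest summit counted was 926 bp from an end, at MAGEL2, and among members with no summit at an end the nearest were 1311 bp away at PEG13 and 1911 bp away at SLC22A18. A further 7 members had no summit at an end but a region inside, and 5 had neither: H19, DLK1, PEG3, ZIM2 and DIRAS3.

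The levels at the ends were below the middle of all coding genes. Taking the strongest region per gene, the 21 coding members had a median fold enrichment of 7.25 (range 3.24 to 12.6), against 10.5 for the 13779 coding genes with a summit at an end. Below that middle value were 17 of the 21, and UBE3A, SNRPN, ZDBF2 and INPP5F were above it. The SNRPN value is that of its outer end, which is also an end of SNHG14, and its open annotated starts had 8.47, 5.04 and 7.29. The region shared by PEG10 and SGCE counts for both genes. In recovered tags the median of the coding members was 625 against 954, with 15 of the 21 below. The surrounding background was 79.4 tags against 87.1, and the regions were of like width, with medians of 1312 and 1321 bp. Median fold enrichments were also below 10.5 for the other listed genes of these clusters (6.68) and for the pan-neuronal genes (8.02). The listed genes that keep imprints were above it, at 11.5. No test was made of these differences.

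**Figure D1:**
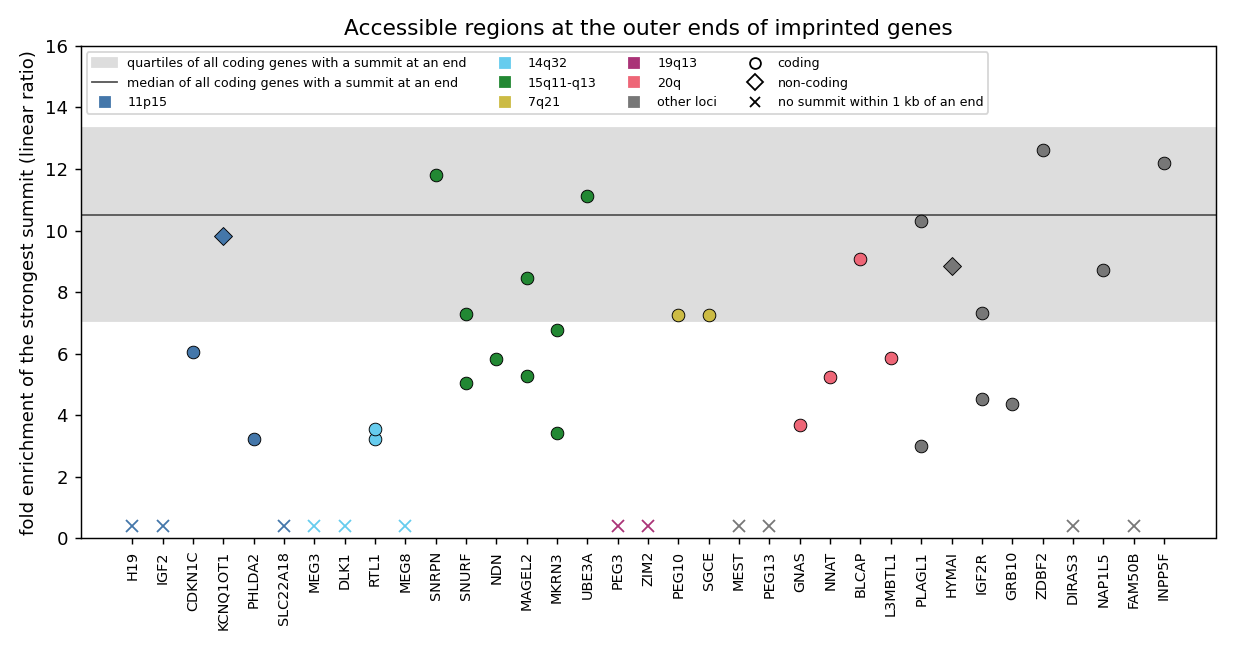
Fold enrichment (vertical axis, linear ratio) of every region with a summit within 1 kb of an outer end, for the 35 imprinted genes in order of cluster; circles are coding and diamonds non-coding genes, and crosses near 0 mark the 12 members with no such summit. The grey band spans the quartiles of all coding genes with a summit at an end (7.08 to 13.3) and the line their median of 10.5; ZDBF2, at 12.6, is the highest member.

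At 11p15, which holds the growth factor gene IGF2 and the growth-limiting gene CDKN1C, 3 of 6 members had a summit at an end. The strongest in tags was at CDKN1C, an inhibitor of cyclin-dependent kinases. Its region on chromosome 11 from 2884960 to 2886665 had its summit 27 bp beyond the higher-coordinate end, with a fold enrichment of 6.06 and 1369 tags (interval 1297 to 1444). These tags stood at percentile 76.4 of regions at coding gene ends, whereas the fold enrichment stood at percentile 25.1. The local background was 225.0 tags, the highest among the coding members' strongest end regions, and it was 225.5 and 228.0 at the next regions on either side.

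KCNQ1OT1, the antisense RNA of the paternal copy that silences its neighbours, lies inside KCNQ1. Its region from 2699194 to 2700944 had a summit 176 bp beyond the higher end, a fold enrichment of 9.84 and 844 tags (interval 788 to 903). PHLDA2, a pleckstrin homology-like gene that restrains placental growth, had a weak region at 3.24 and 205 tags. This gene is 1.15 kb long, so the same region lies within 1 kb of both ends. SLC22A18, a transporter-like gene, had no summit at an outer end, but 1 region lay at its annotated start, 62 bp upstream, with 373 tags at a fold enrichment of 5.98.

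The growth factor gene IGF2 had 1 region inside, at a fold enrichment of 3.13 with 184 tags, and the next lay 2.57 kb beyond its higher end at 4.22 with 373 tags. H19, the maternal non-coding RNA that shares enhancers with IGF2, had no region at an end or inside. The only region within 50 kb of it was 47.9 kb from its lower end, with a fold enrichment of 8.14 and 335 tags. H19 sits in a stretch of 150.3 kb between the strongest summits of neighbouring regions, from 1947315 to 2097648, and 95.5% of the 65210 stretches in the genome were shorter. Their median was 24.8 kb. The stretches ranked here and below were looked up at members with no region inside. The other members with none inside sit in shorter stretches, which were not ranked. These were 5.07 kb at MKRN3, 5.29 kb at MAGEL2, 6.91 kb at NNAT, 24.8 kb at NAP1L5, 35.1 kb at HYMAI and 39.4 kb at NDN. A stretch that holds a given gene tends to be a long one, so these ranks are descriptions and not a measure of rarity. The stretches at DLK1 and ZDBF2, of 41.0 and 54.5 kb, were longer than 66.5% and 75.5% of all.

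At 14q32 a paternally expressed Notch ligand gene, DLK1, faces the maternally expressed RNA genes MEG3 and MEG8, and RTL1, derived from a retrotransposon, is read against the maternal RNA. Here 1 of 4 members had a summit at an end. RTL1 had a region on either side of its annotated start, with fold enrichments of 3.56 (270 tags) and 3.23 (259 tags), whose nearest summits were 815 and 764 bp away. Both are low among coding gene ends, at percentiles 7.0 and 4.6.

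MEG3 had no summit within 1 kb of any of its 3 annotated starts. The nearest was 4364 bp downstream of the first of them. Inside MEG3 lay 4 regions, where the median lncRNA gene within 10% of its length held 1. Their fold enrichments were 4.08, 5.59, 3.65 and 3.99, with 308, 442, 245 and 252 tags. DLK1 had no region inside, and the nearest lay 2.93 kb before its lower end, with 158 tags at 2.88-fold. The strongest region of the cluster lay between DLK1 and MEG3, 26.7 kb beyond DLK1 and 61.2 kb before MEG3, with a fold enrichment of 8.73 and 457 tags (interval 416 to 501). MEG8 held 2 regions, which are the pair at RTL1, because the genes overlap.

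At 15q11-q13, the cluster of Prader-Willi and Angelman syndromes, all 6 members had a summit at an end. NDN and MAGEL2, related genes of the MAGE family, and MKRN3, a ring finger gene, are expressed from the paternal copy. Their starts had regions with summits 2, 49 and 51 bp upstream, at fold enrichments of 5.84 (368 tags), 8.46 (659 tags) and 6.77 (803 tags). The 3 tag intervals were 331 to 408, 610 to 711 and 748 to 861. MAGEL2 had a second region 926 bp beyond its other end, at 5.28, and MKRN3 a second one 711 bp upstream, at 3.41.

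UBE3A, a ubiquitin ligase gene that neurons are known to express from the maternal copy, had the highest tag count of the cluster. Its region from 25437904 to 25439709 had its summit 22 bp upstream of the start, with a fold enrichment of 11.1 and 1559 tags (interval 1483 to 1638), and none lay inside its 105.3 kb. The median coding gene of like length held 2. SNRPN encodes a splicing protein, and its transcripts share exons with SNURF, a small upstream reading frame. The outer end of SNRPN had a region at 11.8 with 397 tags, which is also at an end of the host RNA gene SNHG14. A region 32.9 kb further in, 34 bp upstream of the first annotated start, had 8.47 with 710 tags.

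The start of SNURF, which is also a start of SNRPN and lies at the imprinting centre of the cluster, had a summit 17 bp upstream, at a fold enrichment of 5.04 and 438 tags (interval 398 to 481). A neighbouring region from 24955691 to 24957002 had 7.29 and 625 tags (interval 577 to 676). The next region after it was the one at the start of UBE3A, and their strongest summits are 482.4 kb apart. This stretch is longer than 99.7% of all, and it holds 93 listed genes, among them 48 SNORD115 and 30 SNORD116 copies. Those are near-identical small RNA genes, and how reads were shared among the copies was not tested.

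Sequences before the starts of SNURF and NDN are printed because both are open, paternally expressed starts of 1 cluster that differ in base composition. They are the 250 bases before the annotated start, from RefSeq on GRCh38.p14, 5′ to 3′, at chr15:24954737-24954986 (plus strand) and chr15:23687306-23687555 (minus strand). Capitals mark TGCCGC or its reverse complement GCGGCA, the word that ZFP57 binds when methylated. SNURF holds 2 such words and 12 CpG dinucleotides, and NDN holds 1 word and 30 CpG dinucleotides.
SNURF: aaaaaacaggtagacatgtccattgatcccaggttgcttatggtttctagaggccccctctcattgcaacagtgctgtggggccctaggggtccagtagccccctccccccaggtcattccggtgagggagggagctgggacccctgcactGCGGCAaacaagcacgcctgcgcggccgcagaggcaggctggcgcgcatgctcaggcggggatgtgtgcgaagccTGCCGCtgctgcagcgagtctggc
NDN: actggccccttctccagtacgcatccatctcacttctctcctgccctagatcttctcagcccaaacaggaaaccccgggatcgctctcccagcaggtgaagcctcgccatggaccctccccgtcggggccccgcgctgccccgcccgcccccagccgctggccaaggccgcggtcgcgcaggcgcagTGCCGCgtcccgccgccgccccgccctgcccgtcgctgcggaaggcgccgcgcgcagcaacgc

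At 7q21 the genes SGCE, for epsilon-sarcoglycan, and PEG10, derived from a retrotransposon, lie head to head, and both are paternally expressed. They share 1 region of 2623 bp with 5 summits, from 94655608 to 94658230, with the nearest listed summits 58 bp from the SGCE end and 134 bp from the PEG10 end. Its strongest summit lay 1.70 kb inside PEG10, with a fold enrichment of 7.25 and 1252 tags (interval 1184 to 1323). Counting only the strongest summit of each region would leave both genes without an accessible end. A second region inside PEG10, from 94658330 to 94658692, had 6.09 and 1059 tags, while the 3 inside SGCE had 9.74, 4.07 and 4.14, with 491, 122 and 124 tags.

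At 19q13 the zinc finger genes PEG3 and ZIM2 share their higher-coordinate end, and neither had a region at an end or inside. The summit nearest to the shared end was 26.0 kb beyond it, at a fold enrichment of 3.90 and 117 tags. A stretch of 115.4 kb between the strongest summits of neighbouring regions spans both genes, and 92.3% of all stretches were shorter.

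On the long arm of chromosome 20 all 4 members had a summit at an end. NNAT, a small membrane protein gene of neurons, lies inside BLCAP, and its end had a summit 8 bp away at 5.22 with 279 tags. BLCAP's own start had 9.08 with 723 tags. L3MBTL1, a chromatin reader gene, had 5.87 and 256 tags at its first start and 10.6 and 987 tags (interval 926 to 1051) at its second, which lies 6.74 kb downstream.

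GNAS encodes the stimulatory G protein alpha subunit and is known for several promoters with different imprints. It held 8 regions inside, where the median of 800 coding genes of like length held 1. Its first start had a weak region of 3.69 with 113 tags (interval 93.1 to 136). The start group 12.97 kb downstream had 4.31 with 233 tags, and the last, 48.7 kb downstream, had 3.91 with 578 tags (interval 532 to 627). The most tags in GNAS, 848 with a fold enrichment of 5.66, were in a region from 58890279 to 58891982, downstream of the last listed start.

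Of the 11 members outside these clusters, 7 had a summit at an end. ZDBF2, a zinc finger gene, had 12.6 with 1112 tags (interval 1048 to 1179), and INPP5F, a phosphoinositide phosphatase gene, had 12.2 with 1625 tags (interval 1547 to 1706). At the second start of INPP5F, 92.8 kb downstream, a region had 7.38 with 222 tags (interval 194 to 253). IGF2R, the receptor that clears IGF2, had 7.32 with 594 tags at its start and 4.53 with 164 tags at the other end. NAP1L5, a nucleosome assembly-like gene inside HERC3, had 8.72 with 419 tags.

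PLAGL1, a zinc finger factor gene that limits growth, and the RNA gene HYMAI share a start, at which a region had 8.84 with 550 tags (interval 505 to 598). PLAGL1's outermost start had 10.3 with 922 tags. A total of 8 regions lay inside PLAGL1, where genes of like length held a median of 2, and the highest, 12.3 with 1834 tags, was 33.0 kb from its lower end and within 1 kb of no listed start. GRB10, an adaptor of growth factor receptors, had 4.38 with 351 tags at its first start and 9.32 with 851 tags (interval 795 to 910) at the next one, 10.6 kb downstream. The tag intervals of these GRB10 starts do not overlap. The highest region inside GRB10, 12.4 with 1107 tags, lay 100.8 kb from its lower end and at no listed start.

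MEST, a hydrolase-like gene, had no summit within 1 kb of its first starts, and regions with 520 and 447 tags lay at its later starts. These had fold enrichments of 5.39 and 4.78. FAM50B, a retrocopy of FAM50A, had a weak region of 3.84 with 115 tags 123 bp upstream of its annotated start. PEG13, an RNA gene inside TRAPPC9, had 1 region of 6.85 with 688 tags, 1.31 kb from its nearer end. DIRAS3, a Ras-like growth inhibitor gene, was the only member with nothing at an end, inside or within 50 kb, and the strongest summits of the regions on either side were 165.8 kb apart, longer than 96.4% of all.

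**Figure D2:**
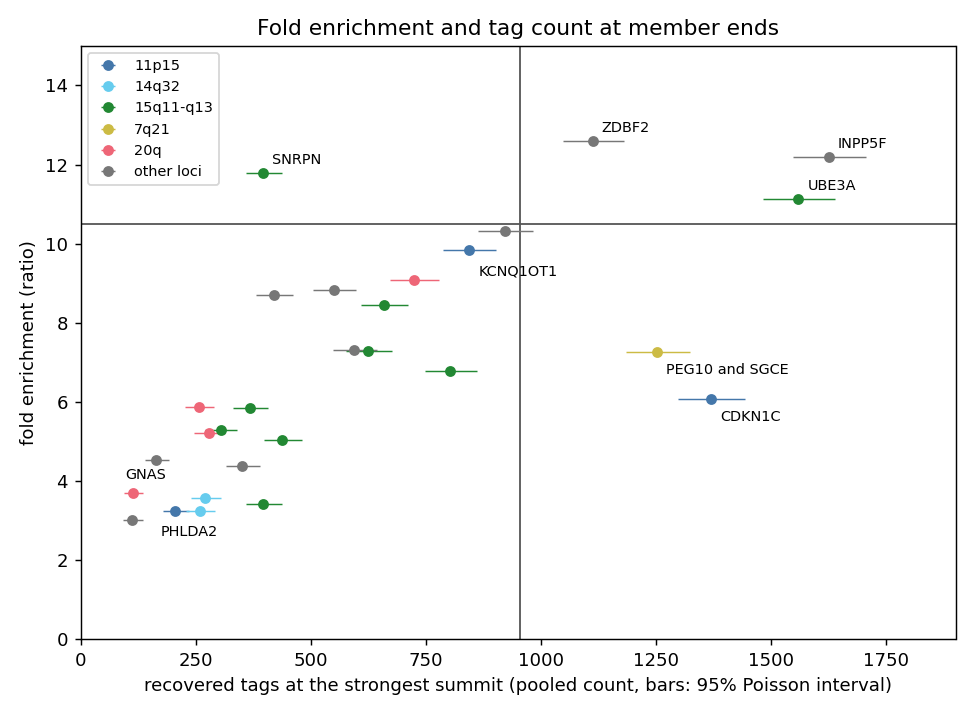
Fold enrichment (vertical axis, linear ratio) against recovered tags (horizontal axis, pooled count with exact Poisson 95% intervals) for the 28 distinct regions at member ends, coloured by cluster; the lines mark the medians of all coding genes with a summit at an end, 10.5 and 954 tags. CDKN1C and the region of PEG10 and SGCE have more tags but less fold enrichment than these medians, and SNRPN the reverse.

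Annotated starts gave a finer measure than outer ends. The RefSeq promoter table lists starts for 23 of the 35 members, and starts at most 1 kb apart were joined into 40 groups. A summit lay within 1 kb of 29 of them. Those of coding members were 28 of 37 (75.7%), where the share was 66.7% of 18908 groups of coding genes. By gene, 19 of 20 coding members had at least 1 such start, with DIRAS3 the exception, and 72.4% of coding genes did. Of the 3 non-coding members HYMAI had one and H19 and MEG3 had none, where 32.9% of lncRNA genes did. The 20 coding members have 37 start groups, and the 15842 coding genes with listed starts have 18908. A coding member thus has more starts at which a summit can lie, so the shares by gene are not alike in this. Among the same 23 members, the outer end on the side of the start had a summit in 17 and the opposite end in 3, which were MAGEL2, PLAGL1 and IGF2R. The shares by side were not computed over all genes, so these counts have no background beside them. The 17 include SNRPN, whose outer end lies upstream of its first annotated start and is also an end of SNHG14.

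For 8 members several start groups are listed. The first had a summit in 7 of the 8, with MEST the exception, against 68.6% of 2258 coding genes. Of 17 internal groups 10 had one (58.8%), against 48.6% of 3066 in coding genes. SNRPN and PLAGL1 share starts with SNURF and HYMAI, so these groups are not independent. Where tag intervals of open groups did not overlap, a later group had more tags than the first at L3MBTL1, GRB10 and GNAS. The first had more than the later one at INPP5F and than the third at PLAGL1 (922 against 550 tags). For each group the region with the nearest summit was taken. At SNRPN that gave 710 tags at the first and 438 at the third, whose intervals do not overlap. A second region within 1 kb of the third had 625 tags, and its interval of 577 to 676 overlaps the 659 to 764 of the first. How often such intervals fail to overlap was not computed over all coding genes. The intervals cover counting error only, so these orders describe the pooled list and were not tested.

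**Figure D3:**
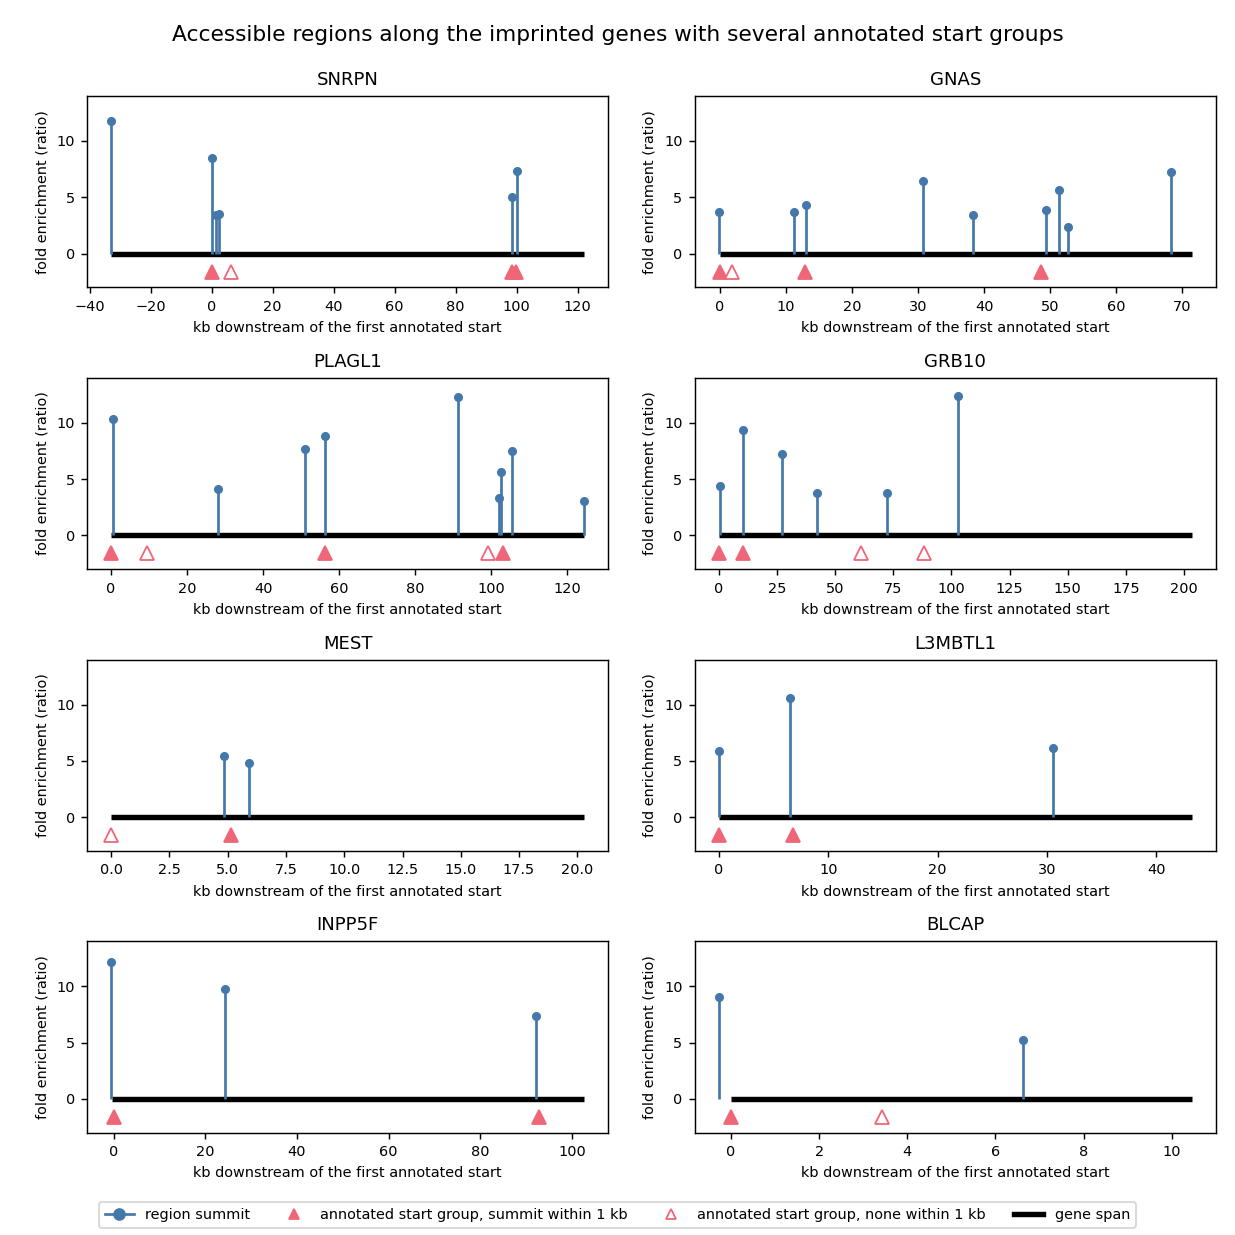
Regions along the 8 imprinted genes with several annotated start groups: the height of each stem is fold enrichment (linear ratio), the horizontal axis is the distance in kb downstream of the first annotated start, and the bar is the gene span. Filled triangles are start groups with a summit within 1 kb and open triangles those without; MEST opens only at its second group, 5.15 kb downstream, and GRB10 at the first 2 of its 4.

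The sequences before 7 more starts show what the open and the unmatched starts look like. The first 4 had a summit within 1 kb: the shared HYMAI and PLAGL1 start (chr6:144008260-144008509, minus), the last MEST start (chr7:130491835-130492084, plus), the second group of GRB10 (chr7:50782897-50783146, minus) and NAP1L5 (chr4:88697830-88698079, minus). The other 3 had none: MEG3 (chr14:100825858-100826107, plus), DIRAS3 (chr1:68050628-68050877, minus) and H19 (chr11:2001267-2001516, minus). Each is the 250 bases before the start on GRCh38.p14, from RefSeq, with the same word in capitals where it occurs. The printed bases stop before the start, and those of MEST, GRB10, DIRAS3 and H19 hold no such word. The longer windows counted in the next paragraph also run past the start. In them this MEST start has 3 copies of the word and the DIRAS3 start has 2. HYMAI holds 32 CpG dinucleotides and H19 only 4, while DIRAS3 holds 17 and MEG3 holds 13, near the 16 of NAP1L5.
HYMAI: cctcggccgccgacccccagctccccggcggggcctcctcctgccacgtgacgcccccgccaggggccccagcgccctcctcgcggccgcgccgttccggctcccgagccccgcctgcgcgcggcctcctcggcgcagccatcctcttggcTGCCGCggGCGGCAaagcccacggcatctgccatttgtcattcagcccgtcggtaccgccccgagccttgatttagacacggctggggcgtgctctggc
MEST: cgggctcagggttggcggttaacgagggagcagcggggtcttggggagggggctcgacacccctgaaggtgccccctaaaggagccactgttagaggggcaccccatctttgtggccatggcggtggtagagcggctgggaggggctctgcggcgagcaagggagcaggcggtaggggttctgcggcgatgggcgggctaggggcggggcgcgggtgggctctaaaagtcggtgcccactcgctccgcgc
GRB10: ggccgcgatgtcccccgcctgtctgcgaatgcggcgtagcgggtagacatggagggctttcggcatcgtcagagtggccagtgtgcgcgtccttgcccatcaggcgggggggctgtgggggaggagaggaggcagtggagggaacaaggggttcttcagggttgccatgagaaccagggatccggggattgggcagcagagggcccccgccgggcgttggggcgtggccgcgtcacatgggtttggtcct
NAP1L5: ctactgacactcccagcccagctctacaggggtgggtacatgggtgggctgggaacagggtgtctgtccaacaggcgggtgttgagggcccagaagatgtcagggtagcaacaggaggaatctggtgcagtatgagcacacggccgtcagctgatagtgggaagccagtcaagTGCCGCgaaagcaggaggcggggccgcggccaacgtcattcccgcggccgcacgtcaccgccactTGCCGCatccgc
MEG3: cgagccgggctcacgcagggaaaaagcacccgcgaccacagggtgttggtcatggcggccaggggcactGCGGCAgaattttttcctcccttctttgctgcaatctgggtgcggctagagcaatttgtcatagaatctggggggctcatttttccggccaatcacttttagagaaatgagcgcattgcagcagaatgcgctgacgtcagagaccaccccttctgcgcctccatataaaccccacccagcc
DIRAS3: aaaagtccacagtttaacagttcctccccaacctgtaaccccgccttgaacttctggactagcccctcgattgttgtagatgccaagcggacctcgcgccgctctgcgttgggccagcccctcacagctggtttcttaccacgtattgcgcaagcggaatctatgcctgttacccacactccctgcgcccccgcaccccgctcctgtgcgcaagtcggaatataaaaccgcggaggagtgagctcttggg
H19: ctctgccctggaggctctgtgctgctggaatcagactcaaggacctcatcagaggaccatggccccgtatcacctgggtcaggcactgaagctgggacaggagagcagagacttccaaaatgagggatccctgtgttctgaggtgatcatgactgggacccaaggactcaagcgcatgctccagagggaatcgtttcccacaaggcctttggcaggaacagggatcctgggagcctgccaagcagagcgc

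Over all 51 distinct member windows of 300 bases, from 250 before to 50 after a start, the 37 with a summit within 1 kb had a median of 23 CpG dinucleotides and the 14 without had 9.5. The medians over coding windows were 26 with a summit and 5 without. The word TGCCGC, on either strand, was present in 21 of the 51 member windows (41.2%), in 20.6% of 22199 coding windows and in 16.7% of all 35116 windows. It was found in 25.8% and 9.01% of coding windows with and without a summit. Among member windows it was in 14 of the 37 with a summit and in 7 of the 14 without. Those 7 belong to MEG3, MEST, BLCAP and DIRAS3 only, because MEG3 has 3 neighbouring starts and MEST also has several. Overlapping windows of the same gene are not independent, so these are counts of windows and not of genes. The word GGGCGG of SP1, which on the other strand can overlap TGCCGC, was in 22 of the 37 and 1 of the 14, and in 69.9% and 25.8% of coding windows with and without a summit.

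The long CTCF consensus was in 0 member windows and in 0.0655% of all windows, and its core CCCTC was in 40 of 51 and 71.2%. The palindromic NRF1 word was in 1 member window and 1.24% of all windows. A YY1 word with free positions was in 3 and 2.12%, and its exact form in 0 and 0.849%. TATAAA was in 7 and 11.5%: it was in 2 of the 37 member windows with a summit and 5 of the 14 without, and in 5.56% and 18.2% of coding windows with and without. Those 5 belong to MEG3, with its overlapping windows, GRB10 and DIRAS3. All were searched on both strands, windows of neighbouring starts overlap, and a match is a description of these letters only.

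Regions inside members numbered 58, or 56 when those inside overlapping members were counted once. At least 1 lay inside 18 of the 29 coding members, where 51.2% of coding genes held one, and inside 4 of the 6 non-coding members, where 33.5% of lncRNA genes did. Within 50 kb outside the ends coding members had a median of 4 regions (range 0 to 10) and all coding genes 3 (quartiles 2 and 5). Non-coding members had a median of 2 (range 1 to 7), and all lncRNA genes also 2 (quartiles 1 and 4).

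**Figure D4:**
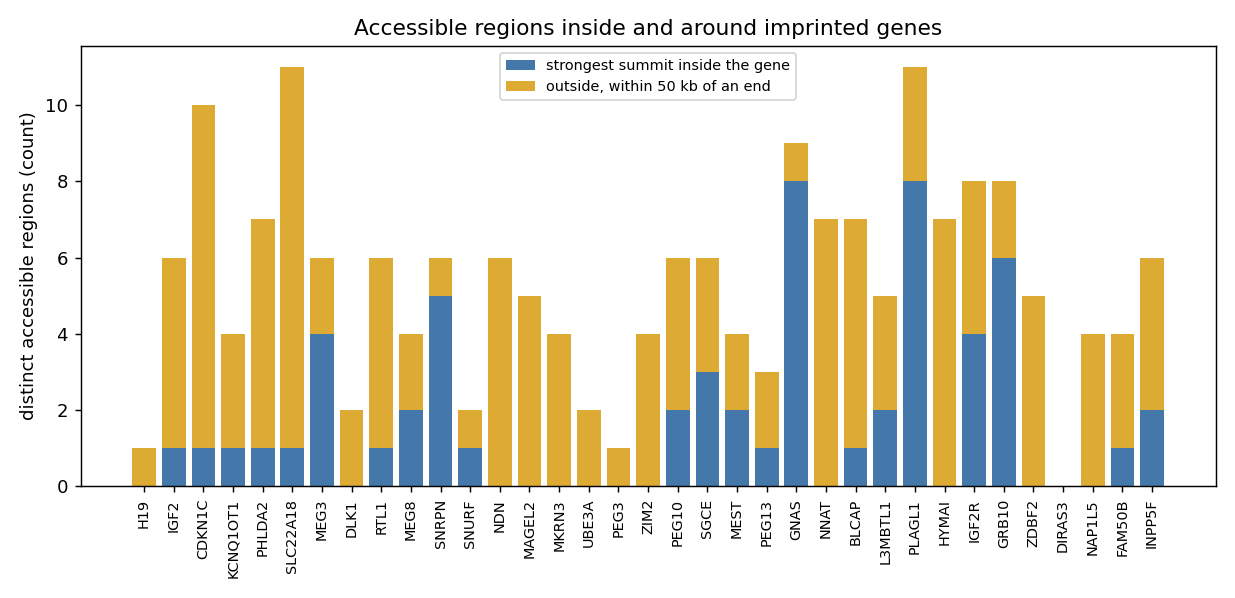
Number of distinct accessible regions (vertical axis, count) for each of the 35 imprinted genes: blue, strongest summit inside the gene; yellow, outside but within 50 kb of an outer end. PLAGL1 and GNAS hold 8 inside each, SLC22A18 has 10 around it, and DIRAS3 has 0 of either kind; neighbouring genes share regions.

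By cluster, windows from 50 kb before the first member to 50 kb after the last held between 17.2 regions per Mb at 15q11-q13 and 63.4 per Mb around NNAT and BLCAP. The 11p15 window had 35.8, 14q32 had 21.5, 19q13 had 24.1 and 7q21 had 32.5, and the genome had 21.1 per Mb. Median fold enrichments in these windows were lowest at 14q32, at 3.82, followed by GNAS at 3.91 and 11p15 at 4.17, where the median of all regions was 5.60. The strongest region of the 11p15 window, 10.9 with 2339 tags, lay 0.203 kb from an end of TSSC4, which is no member.

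Other genes of the same clusters were taken from a list of 44, and 26 of them had a summit at an end. These were 21 of 35 coding genes (60.0%), where 68.8% of all coding genes had one, and 5 of 9 non-coding or antisense genes (55.6%), where 30.5% of lncRNA genes had one. The antisense genes PEG3-AS1 and GNAS-AS1 are not among those lncRNA genes. DIO3OS and SNHG14 share their end regions with the coding genes DIO3 and SNRPN. At 14q32 all 5 had a summit at an end, from MEG9 at 2.73 to WDR25 at 14.4, and DIO3, for the deiodinase of thyroid hormone, had 5.18. At 19q13 only ZNF264 of 6 had one, at 12.8. KCNQ1, whose intron holds KCNQ1OT1, had none at an end but 12 regions inside. At 15q11-q13, 4 of 6 had one, and NPAP1 had none.

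The machinery that keeps imprints was listed with 12 genes, of which 8 had a summit at an end (66.7%), near the 68.8% of all coding genes. ZNF445 had 13.8, TRIM28 13.2, DNMT1, the maintenance methyltransferase, 13.6, SETDB1 15.8 and CTCF 8.51. DNMT3A and DNMT3B, which place new methylation, had 8.65 and 8.01, and SMCHD1 had 9.72. UHRF1, the partner of DNMT1, had a summit at an annotated start but not at an outer end. ZFP57, DPPA3 and DNMT3L, which are known from egg and early embryo, had none at an end or inside.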

How the data were processed

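ATAC-seq was made from 3 samples of 1 group, with 3 biological replicates per the labels' protocols. The build hg38 is named in the submitters' processing notes, while the aligner, peak caller and filters are not given in the sources used here. The list's name in the labels points to a set chosen by IDR, a measure of reproducibility between replicates. The authors deposited a fold enrichment per summit as a linear ratio. They deposited −log10 p and −log10 q values for the same summits, and a score of 540 to 1000 per entry.

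Entries with the same bounds were joined into distinct regions, each with the values of its entry of highest −log10 p. Tag counts were solved from ratio and p under a Poisson tail with a pseudocount of 1. The largest miss was 0.00079 in −log10 p, against a median of 0.266 for the next whole number. On 20000 simulated summits 100% of counts were recovered. Depth per sample is unknown. An end was called accessible when any listed summit lay within 1 kb of an outer bound in RefSeq GRCh38.p14, and regions inside or within 50 kb were placed by their strongest summit. Starts came from the RefSeq promoter table.

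The members and gene lists were chosen with earlier results of these data known. All 35 members are named by rule, with listed genes given as counts and examples. Listed genes named beyond those nearest to a member's region were picked after their values were seen. No test, no set test and no comparison of groups was made. Alternatives were a score of at least 830, windows of 500 bp and 2 kb, any overlap, regions above the median fold enrichment, annotated starts only, all summit entries, distances of 20 and 100 kb, and regions away from gene ends. Counting only the strongest summit was chosen after seeing the data. Python 3.11.15, numpy 2.4.6, scipy 1.17.1, pandas 2.3.3 and matplotlib 3.10.9 were used.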

Additional observations from a re-analysis of the deposited data

How the results depend on the processing

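Of 19 recomputed values for 4 results, 13 stayed within 1.5 times the reported value. Members with an accessible end, 23 as reported, ranged from 18 above the median fold enrichment, without PHLDA2, RTL1, GNAS, NNAT and GRB10, to 25 within 2 kb, which adds SLC22A18 and PEG13. With the strongest summit only they were 21, without PEG10 and SGCE, and with annotated starts only 20 of 23. Of all coding genes 68.8% had an accessible end by the main rule. Their share was 58.1% above the median fold enrichment, 72.4% within 2 kb and 66.7% with the strongest summit only. The median fold enrichment at member ends fell to 3.63 over all 77 summit entries near an end, which include the weaker summits of each region. Regions inside members, 58 as reported, numbered 26 when only those above the all-region median were kept, and 143 when each summit counted. The median within 50 kb became 1 within 20 kb, 6 within 100 kb and 8 as entries. Wider distances and uncollapsed summits admit more regions by construction.

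No paired analysis was possible because all samples share a single group and a pooled list. Leaving out replicates was not run, as no replicate has values of its own. The pooled tags limit the precision of weak regions most: at the first GNAS start, 113 tags have an interval of 93.1 to 136.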

Other observations

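Some of the highest regions around imprinted genes were outside them. A region of 17.0 with 1227 tags, 40.0 kb beyond L3MBTL1, lay 0.028 kb from an end of IFT52. A region of 16.1 with 2298 tags lay 31.1 kb beyond the outer start of PLAGL1, above the 12.3 of the highest region inside that gene. MEST had one of 13.7 with 1336 tags 45.0 kb before its lower bound, against 5.39 and 4.78 inside. INPP5F had one of 13.9 with 1141 tags 43.8 kb beyond its higher bound, and PEG13 one with 1119 tags at 41.5 kb. No link between these regions and the members was measured here.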
